A study of Mus musculus with 9 samples.

Results

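The 44 genes described here encode the machinery of DNA replication and of entry into S phase, from the proteins that mark and load origins to the polymerases, the sliding clamp and the enzymes that make deoxynucleotides. They were listed by symbol for their role, with earlier results of these data known, and matched to the gene identifiers of the deposited count table. All 44 were found, of 52550 genes in the table, and all 44 passed the filter on low counts, which left 11893 genes for testing. Transcripts were counted in mouse embryonic stem cells of V6.5, a hybrid line, as 5 libraries labelled as a double knockout of the transcription factors KLF2 and KLF4 (DKO) and 4 libraries labelled wild type (WT). Both groups were kept in Knockout DMEM with 15% FBS, and with LIF and 2i, the GSK inhibitor GSKi and the MEK inhibitor MEKi, which hold embryonic stem cells in the naive state. The labels do not give how the genes were disrupted, whether the cells are 1 clone, or whether replicates came from separate cultures, so the p-values reflect nothing beyond the scatter of these libraries, and that scatter may be technical. The libraries were made from the 3' ends of polyadenylated RNA.

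Replication is licensed before S phase, when the origin recognition complex (ORC), CDC6 and CDT1 load the MCM2-7 ring, the core of the replicative helicase, onto DNA. In S phase the kinase CDC7, with its activator DBF4, and a CDK with cyclin E switch loaded rings on, which adds CDC45 and the GINS complex, which together form the CMG helicase, and polymerases then copy both strands. Many of these genes are known targets of E2F transcription factors, and mouse embryonic stem cells are known for a short G1 phase and for keeping much of this machinery expressed through the cycle.

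Library totals were 6035642 to 6617834 counts in the libraries labelled DKO and 6557408 to 7098530 in WT, and 3 counts in a library corresponded to 0.426 to 0.506 CPM (CPM, the library's counts scaled to a common total after TMM). Klf2 stood at 594 to 635 CPM in the libraries labelled DKO, against 448 to 468 CPM in WT, and Klf4 at 1403 to 1769 CPM in the libraries labelled DKO, against 775 to 878 CPM in WT. Both genes are thus higher in the group labelled as lacking them, which goes against the label, and 3' reads outside a deleted part check nothing. Every direction given is therefore DKO-labelled over WT-labelled. The 8 embryonic stem cell markers summed to 2592 to 2717 CPM in the libraries labelled DKO and 2044 to 2169.6 CPM in WT, but singly they went both ways. Sox2, Nanog, Esrrb, Dppa5a and Utf1 rose, Zfp42 and Tdgf1 fell, with log2 fold changes of -0.82 to 0.97 over the 8, and Pou5f1, a defining marker, had only 114 to 171 counts in any library and did not pass. The 13 markers of fibroblasts, the usual feeder cells, summed to 6.07 to 10.7 CPM in the libraries labelled DKO and 15.0 to 19.7 CPM in WT, with 4 to 7 of the 13 at 0 counts in each library labelled DKO and 3 to 5 in each WT library, and Lum and Col6a1 at 0 in all of them. The replication genes summed to 9183 CPM or more in every library.

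Of the 44 replication genes, 19 fell in the libraries labelled DKO, 3 rose and 22 did not pass an adjusted p of 0.05 in edgeR, a count model whose p-values were adjusted over all genes tested, so that 43.2% of the members fell and 6.82% rose. The background was high, since 24% of all genes tested fell and 23.9% rose (47.8% in either direction, against 50% of the members). Among the 6095 genes with a mean of at least 21.7 CPM, the level of the lowest member, 26.8% fell and 28.1% rose (54.9% together). The median log2 fold change was -0.09 over the members and 0.01 over all genes tested, and 33 of 44 members had a negative value, against 49.1% of all genes. Fold changes are on the log2 scale, with their standard error (SE) or 95% interval. Most changes were small: 13 members fell at least 1.2-fold, 3 at least 1.5-fold and 1, Gins2, at least 2-fold, beside 19.2%, 11.4% and 6.05% of all genes tested. In an edgeR test against a 1.2-fold change, 10 members fell and 1, Gins4, rose, beside 13.4% lower and 12.4% higher of all genes.

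Summed over the 44 genes, the level was 9378 ± 214 CPM in the libraries labelled DKO and 11137 ± 161 CPM in WT (SD, n = 5 and 4), with single libraries at 9183 to 9726 CPM in the libraries labelled DKO and 10928 to 11322 CPM in WT. The ranges did not overlap. A sum weighs highly counted genes most, and Lig1 had the largest difference in CPM of any member (1185 ± 95.2 CPM in the libraries labelled DKO and 1637 ± 115 CPM in WT). In 19 members every library labelled DKO lay below every WT library, where 19.1% of all genes tested did so, and in 1 member, Gins4, every one lay above, where 18.4% of all genes did so. Within a group the members varied little, with a median coefficient of variation of 5.75% over the libraries labelled DKO and 5.16% over WT. In a bulk measurement, fewer cells in S phase and less RNA per cell cannot be told apart.

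**Figure D1:**
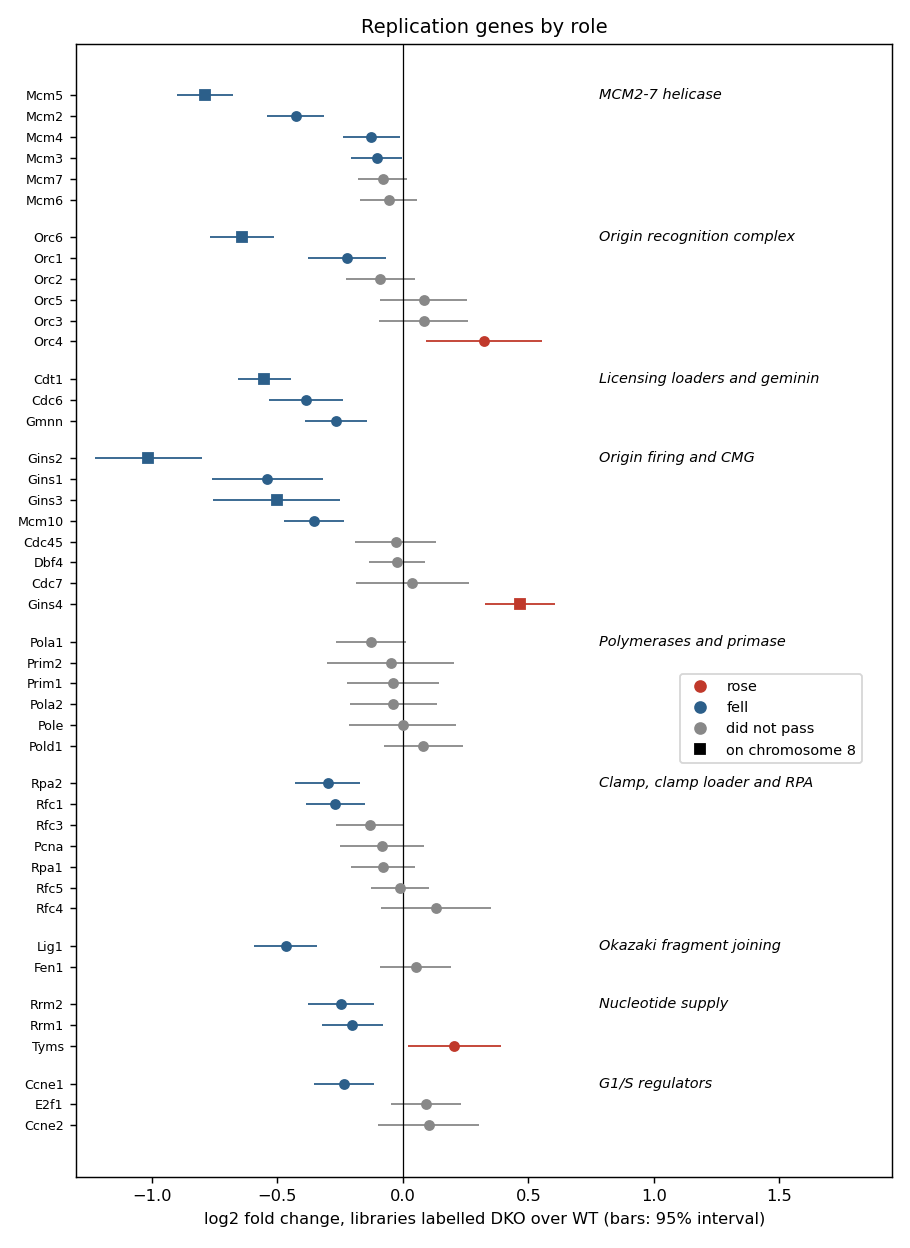
Log2 fold change of each of the 44 replication genes, libraries labelled DKO over WT (horizontal axis), grouped by role down the page, with bars for the 95% interval and squares for genes on chromosome 8. The licensing loaders lie to the left of 0 with geminin, the polymerase and primase genes lie between -0.13 and 0.08, and Gins2 at -1.01 and Gins4 at 0.47 are the ends of the range.

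Of the 44 genes, 6 lie on chromosome 8, the chromosome of Klf2 (chr8:72319033-72321656, plus strand), and all 6 passed the test. Gins4, which starts 49.1 Mb before Klf2, rose, and Mcm5, Orc6, Gins3, Gins2 and Cdt1, which lie after it, fell. The whole chromosome showed the same division: of 304 tested genes that start before Klf2, 206 rose and 24 fell (67.8% and 7.89%, median log2 fold change 0.42), and of 359 that start after it, 18 rose and 273 fell (5.01% and 76%, median -0.60). Among the 359 genes after Klf2, 14.8% had a log2 fold change below that of Gins2, 27.0% below Mcm5, 42.9% below Orc6, 54.0% below Cdt1 and 59.3% below Gins3.

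Set against the median of tested genes within 5 Mb on either side, the values of Cdt1 and Gins3 changed sign, at 0.03 and 0.07 in place of -0.55 and -0.50. Orc6 came to -0.06 and Gins4 to 0.03, and Gins2 to -0.42. Mcm5, 2.79 Mb after Klf2, has a window that spans both sides (median 0.24), which gives -1.03. This measure was chosen after the data were seen. No cause of this shift along the chromosome was tested.

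**Figure D2:**
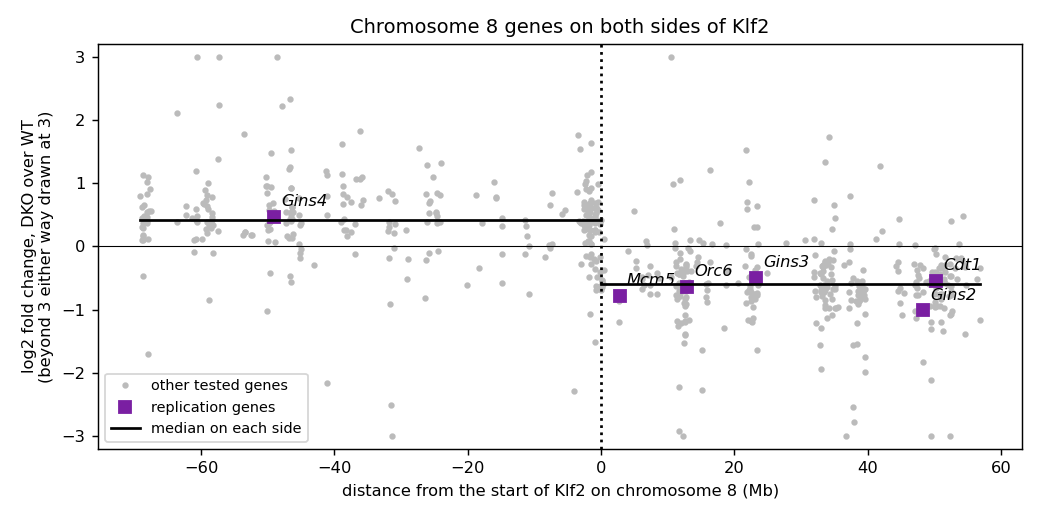
Log2 fold change, libraries labelled DKO over WT, of each tested gene on chromosome 8 (vertical axis, values beyond 3 either way drawn at 3) by distance from the start of Klf2 in Mb (horizontal axis), with the 6 replication genes as purple squares and the median of each side as a line. The medians are 0.42 before Klf2 and -0.60 after it, and Gins3, Cdt1 and Orc6 lie near the line while Gins2 and Mcm5 lie below it.

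Off chromosome 8, 38 replication genes were left, of which 14 fell (36.8%), 2 rose (Orc4 and Tyms) and 22 did not pass, beside 22.8% lower and 23.3% higher among 11229 genes off that chromosome. Their summed level was 8282 ± 170 CPM in the libraries labelled DKO and 9407 ± 151 CPM in WT (SD, n = 5 and 4), again without overlap. Lig1, at 1185 CPM in the libraries labelled DKO and 1637 CPM in WT, had the largest part in that difference, and a sum does not show how single genes moved. Of the 38, 28 had a negative log2 fold change and 10 a positive one, with a median of -0.08. Of all genes tested, 49.1% were negative. Among the 38 genes, Gins1, Lig1, Mcm2, Cdc6 and Mcm10 had the largest falls on the log2 scale. The medians within 5 Mb of Gins1, Lig1 and Mcm10 were -0.09, 0.08 and -0.02, and that of Cdc6 was -0.19.

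These 6 promoters are shown because they hold E2F words in members on both sides of the result: the 4 named members that fell and hold such a word, and the 2 MCM2-7 genes that did not pass. Each runs from 250 bases before to 50 bases after the start of the gene as given by RefSeq on GRCm38.p6, read 5′ to 3′ on the strand of the gene, with the E2F words in capitals. GENCODE, the source of the gene positions, starts Cdc6 at chr11:98907801 and Mcm7 (minus strand) at chr5:138172422. The windows of Cdc6 and Mcm7 thus lie wholly inside the GENCODE genes and may not be their promoters. The positions are chr8:75109259-75109558, plus strand for Mcm5, chr8:122567765-122568064, plus strand for Cdt1, chr8:95633309-95633608, plus strand for Gins3, chr11:98907901-98908200, plus strand for Cdc6, chr1:128359656-128359955, minus strand for Mcm6 and chr5:138171834-138172133, minus strand for Mcm7.
Mcm5: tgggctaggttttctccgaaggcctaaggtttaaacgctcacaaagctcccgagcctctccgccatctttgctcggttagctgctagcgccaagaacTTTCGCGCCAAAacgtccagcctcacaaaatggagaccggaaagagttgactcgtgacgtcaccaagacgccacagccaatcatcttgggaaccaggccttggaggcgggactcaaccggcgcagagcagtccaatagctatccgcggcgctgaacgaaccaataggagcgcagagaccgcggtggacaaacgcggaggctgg
Cdt1: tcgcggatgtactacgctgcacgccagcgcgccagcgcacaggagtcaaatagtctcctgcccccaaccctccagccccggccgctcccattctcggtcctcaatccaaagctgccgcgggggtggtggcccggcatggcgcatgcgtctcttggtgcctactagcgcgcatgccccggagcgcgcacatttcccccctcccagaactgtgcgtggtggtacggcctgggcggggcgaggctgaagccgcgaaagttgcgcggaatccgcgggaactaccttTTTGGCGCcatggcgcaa
Gins3: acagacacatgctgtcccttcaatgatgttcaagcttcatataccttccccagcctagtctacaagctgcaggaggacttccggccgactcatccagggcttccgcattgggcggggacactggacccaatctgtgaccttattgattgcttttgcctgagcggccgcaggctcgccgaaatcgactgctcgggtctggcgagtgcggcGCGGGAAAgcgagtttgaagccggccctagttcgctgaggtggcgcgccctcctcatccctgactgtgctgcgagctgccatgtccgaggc
Cdc6: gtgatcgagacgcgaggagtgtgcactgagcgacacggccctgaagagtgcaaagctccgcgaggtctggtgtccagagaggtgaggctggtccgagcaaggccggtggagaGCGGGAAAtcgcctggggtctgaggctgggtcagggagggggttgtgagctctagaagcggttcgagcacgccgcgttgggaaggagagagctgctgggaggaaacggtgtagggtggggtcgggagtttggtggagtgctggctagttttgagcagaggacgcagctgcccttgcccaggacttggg
Mcm6: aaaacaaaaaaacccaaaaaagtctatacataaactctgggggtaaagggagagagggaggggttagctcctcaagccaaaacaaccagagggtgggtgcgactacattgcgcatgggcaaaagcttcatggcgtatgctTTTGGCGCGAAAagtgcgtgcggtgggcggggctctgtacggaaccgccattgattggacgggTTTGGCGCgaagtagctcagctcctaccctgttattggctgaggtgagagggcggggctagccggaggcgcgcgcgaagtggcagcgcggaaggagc
Mcm7: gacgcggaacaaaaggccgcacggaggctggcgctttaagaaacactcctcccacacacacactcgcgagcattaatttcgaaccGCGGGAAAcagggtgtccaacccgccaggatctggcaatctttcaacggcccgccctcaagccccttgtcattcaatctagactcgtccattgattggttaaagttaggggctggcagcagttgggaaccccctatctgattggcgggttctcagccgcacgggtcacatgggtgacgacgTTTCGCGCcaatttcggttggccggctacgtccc

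The words searched on both strands were TTTCCCGC, TTTCGCGC, TTTGCCGC and TTTGGCGC. In Mcm5 and in the first stretch of Mcm6, 2 words on opposite strands overlap, and in Mcm7 the last base of TTTCGCGC is also the first base of a CCAAT. A RefSeq promoter was matched for 36 of the 44 members, and Ccne2, Pole, Gins1, Gins2, Gins4, Mcm4, Prim2 and Gmnn were not matched. At least 1 E2F word stood in 12 of the 36 (33.3%), against 2.26% of all 32851 promoters and 4.59% of 8958 promoters of tested genes. These sets were not chosen alike, for this word or the others. A member had the RefSeq start nearest its GENCODE start, a tested gene the first listed start, and the 32851 hold every listed start. The E2f1 window, counted without a word, lies wholly inside its GENCODE gene. Those of Fen1, Lig1 and Rpa1, also without a word, and of Mcm5 stop short of the GENCODE start. Of the matched members, the word was present in 6 of 15 that fell, 6 of 19 that did not pass and 0 of 2 that rose. Members without a word include Orc6, Mcm2, Lig1 and Mcm10, which fell. For the other words the shares were closer: CCAAT stood in 58.3% of the members and 39.7% of the promoters of tested genes, GGGCGG in 72.2% and 67.5%, and CCACCC, a word of KLF binding sites, in 25% and 36.5%. A match describes letters in this window and is not a binding measurement.

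Among the MCM2-7 helicase genes, 4 of 6 fell in the libraries labelled DKO (66.7%, beside 24% of all genes tested) and 2 did not pass. Mcm5 and Mcm2 had the largest falls, and Mcm5 lies on chromosome 8 after Klf2, where 76% of the genes tested fell. Mcm5 (ENSMUSG00000005410, chr8:75109569-75128439, plus strand) was at 378, 355, 404, 355 and 359 CPM in DKO 1 to 5, against 659.5, 650.5, 604 and 643 CPM in WT 1 to 4. All libraries labelled DKO lay far below the lowest WT library. The means were 370.2 ± 21.3 CPM in the libraries labelled DKO and 639 ± 24.4 CPM in WT, a log2 fold change of -0.79 ± 0.05 SE (adjusted p = 6.41e-16, edgeR), or 57.9% of the WT level. Mcm2 (ENSMUSG00000002870, chr6:88883474-88898780, minus strand) was at 479, 450.3, 417, 422 and 431 CPM in DKO 1 to 5 and 591, 600.5, 551 and 623 CPM in WT 1 to 4. The groups again did not overlap, and DKO 1 was the closest to WT. Its log2 fold change was -0.43 ± 0.05 SE (adjusted p = 3.78e-09, edgeR), on a part of chromosome 6 where the median within 5 Mb was -0.23.

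The other 4 ring genes had smaller differences. Mcm3 was at 619 to 670.5 CPM in the libraries labelled DKO, against 673 to 724 CPM in WT, with a log2 fold change of -0.10 ± 0.04 SE (adjusted p = 0.0468, edgeR). Mcm4 was at 496 to 544 CPM in the libraries labelled DKO, against 514 to 604 CPM in WT, with overlapping groups and a log2 fold change of -0.13 ± 0.05 SE (adjusted p = 0.029, edgeR). These calls turned on single libraries. Mcm3 no longer passed when any of DKO 1, 2, 4 or 5 or WT 1, 2 or 3 was left out (adjusted p 0.0246 to 0.147 by edgeR over the 9 such fits), and Mcm4 no longer passed without DKO 2, DKO 4, WT 2 or WT 4 (edgeR adjusted p 0.00427 to 0.135). Mcm6 did not pass (log2 fold change -0.06, interval -0.17 to 0.06). Mcm7 did not pass either (-0.08, interval -0.18 to 0.02), although the libraries labelled DKO, at 879 to 939.6 CPM, lay below those of WT, at 950.0 to 979.5 CPM. Its exons overlap those of Ap4m1 (321 bases) and Cops6 (64 bases) on the other strand. Their log2 fold changes were 0.11 and 0.25, only Cops6 passed, and the Mcm7 count is uncertain without the strand setting.

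The 6 subunits sit in the ring in equal number, so their share of the ring's counts was also taken per library. Mcm5 held 11.1% ± 0.460 of the MCM2-7 counts in the libraries labelled DKO and 16.2% ± 0.463 in WT (SD, n = 5 and 4), with no overlap between the groups. Mcm2 held 13.1% ± 0.687 in the libraries labelled DKO and 15.0% ± 0.397 in WT. The other 4 made up the rest, with Mcm7 at 27.2% ± 0.891 in the libraries labelled DKO and 24.5% ± 0.345 in WT. Shares are parts of a fixed whole, so smaller shares of Mcm5 and Mcm2 make the others larger. In CPM, Mcm7 was not higher, with means of 911 CPM in the libraries labelled DKO and 963 CPM in WT. The 6 genes summed to 3349 ± 65.9 CPM in the libraries labelled DKO and 3935 ± 106 CPM in WT. The part of the shift along chromosome 8 in the Mcm5 share was not tested.

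In the origin recognition complex, which binds origins and is the platform for loading, 2 of 6 genes fell and 1 rose. These are 33.3% and 16.7%, beside 24% and 23.9% of all genes tested. Orc6 (ENSMUSG00000031697, chr8:85299632-85308278, plus strand), the smallest subunit, on chromosome 8 after Klf2, was at 114, 122, 120.3, 113 and 119 CPM in DKO 1 to 5, against 183, 184, 173 and 195 CPM in WT 1 to 4. The groups were well apart, with little spread within either. Its log2 fold change was -0.64 ± 0.05 SE (adjusted p = 3.58e-12, edgeR). Vps35, which shares 171 bases of exon with Orc6 on the other strand, had a log2 fold change of -0.38, and reads of the pair could be shared if strand was not used in counting.

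Orc1, an ATP-binding subunit whose level changes through the cell cycle, fell with overlapping groups, at 77.0 to 95.9 CPM in the libraries labelled DKO, against 89.3 to 104 CPM in WT (log2 fold change -0.22 ± 0.07 SE, adjusted p = 0.00574 by edgeR). Orc4, another subunit of the ATPase core, rose, at 32.3 to 45.6 CPM in the libraries labelled DKO, against 26.4 to 33.2 CPM in WT, with a log2 fold change of 0.32 ± 0.10 SE (adjusted p = 0.00611, edgeR). WT 2 was above DKO 2, so these groups overlap too. On the other strand Orc4 shares 446 bases of exon with Acvr2a and 136 with Mbd5. Their log2 fold changes were 0.40 and 0.05, neither passed, and the Orc4 count is uncertain without the strand setting. Orc2, Orc3 and Orc5 did not pass, with log2 fold changes of -0.09, 0.08 and 0.08 and 95% intervals that lie within -0.23 to 0.26.

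The loaders CDC6 and CDT1 and the CDT1 inhibitor geminin fell, 3 of 3, and all 3 without overlap between the groups. Of all genes tested, 24% fell and 19.1% lay lower without overlap. Less the median within 5 Mb, Cdt1, on chromosome 8 after Klf2, turned to 0.03, Cdc6 came to -0.19 and Gmnn to -0.23 on the log2 scale. Cdt1 (ENSMUSG00000006585, chr8:122568015-122573554, plus strand) was at 282, 279, 288, 282 and 279 CPM in DKO 1 to 5, against 405, 429.8, 403 and 417 CPM in WT 1 to 4. The libraries labelled DKO were within 10 CPM of each other and at 68.2% of the WT level. Its log2 fold change was -0.55 ± 0.04 SE (adjusted p = 1.71e-12, edgeR). Cdc6 (ENSMUSG00000017499, chr11:98907801-98923940, plus strand), the ATPase that recruits the helicase with CDT1, was at 85.8, 91.0, 105, 98.4 and 89.8 CPM in DKO 1 to 5, against 118, 126, 119 and 127 CPM in WT 1 to 4. DKO 3 was the highest of its group and still lay below every WT library, and the log2 fold change was -0.39 ± 0.06 SE (adjusted p = 3.03e-06, edgeR). Gmnn, which encodes geminin, was at 161 to 182 CPM in the libraries labelled DKO, against 193 to 208 CPM in WT (log2 fold change -0.27 ± 0.05 SE, adjusted p = 5.92e-05 by edgeR).

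The genes of origin firing and the CMG helicase held both ends of the range, with 4 of 8 lower in the libraries labelled DKO and 1 higher. These are 50% and 12.5%, beside 24% and 23.9% of all genes tested. The GINS complex holds 1 copy of each of 4 subunits, and 3 of their genes fell while Gins4 rose. On chromosome 8, Gins4 is before Klf2 and Gins2 and Gins3 are after it, and less the median within 5 Mb their log2 fold changes come to 0.03 for Gins4, 0.07 for Gins3, with its direction turned, and -0.42 for Gins2. Gins2 (ENSMUSG00000031821, chr8:120578633-120589304, minus strand) was at 186, 189.6, 237, 161 and 169 CPM in DKO 1 to 5, against 377, 402, 388 and 356 CPM in WT 1 to 4. DKO 3 stood above the other libraries labelled DKO, and the groups remained far apart. The means were 189 ± 29.6 CPM in the libraries labelled DKO and 381 ± 19.5 CPM in WT, with a log2 fold change of -1.01 ± 0.09 SE (adjusted p = 6.51e-07, edgeR), or 49.5% of the WT level. Gins2 shares 2758 bases of exon with Gse1 on the other strand, whose own log2 fold change was -0.30, so its count is uncertain without the strand setting.

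Gins4 (ENSMUSG00000031546, chr8:23226616-23237659, minus strand) was at 114, 114, 118, 126 and 121 CPM in DKO 1 to 5, against 87.2, 85.2, 81.1 and 90.04 CPM in WT 1 to 4. It was the only replication gene with every library labelled DKO above every WT library, at a log2 fold change of 0.47 ± 0.06 SE (adjusted p = 4.22e-08, edgeR). Gins1 (ENSMUSG00000027454, chr2:150905400-150931280, plus strand) was at 27.1, 32.7, 25.9, 30.0 and 24.2 CPM in DKO 1 to 5, against 40.1, 43.3, 36.7 and 42.6 CPM in WT 1 to 4, with a log2 fold change of -0.54 ± 0.09 SE (adjusted p = 1.06e-05, edgeR). Gins3 (ENSMUSG00000031669, chr8:95633453-95645060, plus strand), with few reads, was at 16.7, 18.2, 18.2, 20.9 and 21.5 CPM in DKO 1 to 5, against 23.8, 27.9, 30.7 and 25.8 CPM in WT 1 to 4, with a log2 fold change of -0.50 ± 0.11 SE (adjusted p = 0.000206, edgeR). In both the groups stood apart, with a gap of a few CPM.

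As shares of the counts of the complex, Gins2 made up 53.0% ± 4.45 in the libraries labelled DKO and 71.2% ± 1.42 in WT, while Gins4 made up 33.6% ± 3.12 in the libraries labelled DKO and 16.1% ± 1.13 in WT (SD, n = 5 and 4). Gins1 stood at 7.94% ± 1.14 in the libraries labelled DKO and 7.62% ± 0.598 in WT, and Gins3 at 5.43% ± 0.819 in the libraries labelled DKO and 5.06% ± 0.501 in WT. Both genes fell in CPM, and their shares did not, since shares are parts of a fixed whole. The 4 genes summed to 354 ± 25.8 CPM in the libraries labelled DKO and 534 ± 18.4 CPM in WT. With Gins4 before Klf2 and Gins2 and Gins3 after it on chromosome 8, the part of the shift along that chromosome in these shares was not tested.

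**Figure D3:**
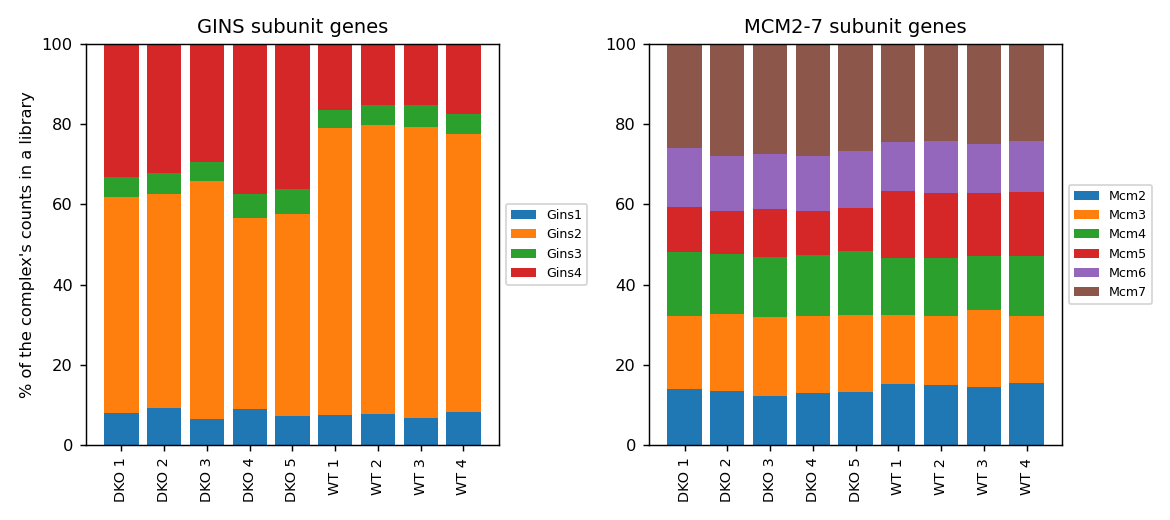
Share of the counts of the GINS genes (left) and of the MCM2-7 genes (right) that each subunit gene held, in percent of the counts of the complex, for DKO 1 to 5 and WT 1 to 4. The Gins4 share is 29.5% to 37.3% in the libraries labelled DKO and 15.1% to 17.5% in WT, and the Mcm5 share is smaller in every library labelled DKO. Gins4 (before Klf2) and Gins2, Gins3 and Mcm5 (after it) lie on chromosome 8.

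Mcm10 (ENSMUSG00000026669, chr2:4989714-5012791, minus strand), which helps to activate the CMG helicase, was at 172, 176, 167, 156 and 165 CPM in DKO 1 to 5, against 212, 220.0, 211 and 212 CPM in WT 1 to 4. All libraries labelled DKO were below WT, and the log2 fold change was -0.35 ± 0.05 SE (adjusted p = 4.24e-07, edgeR). The remaining firing genes did not pass: Cdc45, the third CMG component, at -0.03 (interval -0.19 to 0.13), and the kinase Cdc7 and its activator Dbf4 at 0.04 (-0.19 to 0.26) and -0.02 (-0.14 to 0.09).

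**Figure D4:**
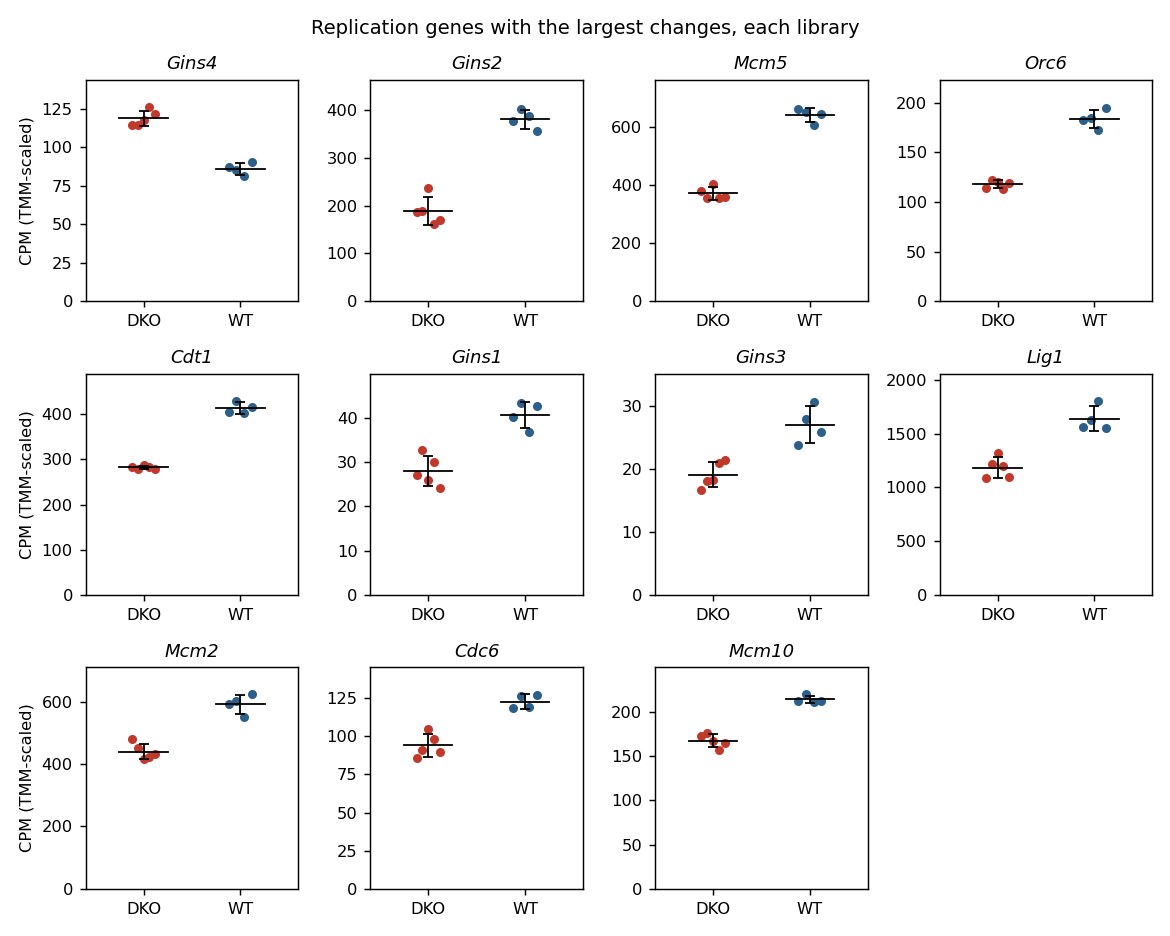
Level of the 11 replication genes with the largest changes that do not overlap between the groups, in CPM on TMM-scaled library sizes, for the 5 libraries labelled DKO (left in each panel) and the 4 WT libraries (right). Points are libraries, the wide line is the mean and the bar is the SD, and in Gins4 alone the libraries labelled DKO are the higher ones.

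Of the 6 polymerase and primase genes, 0 passed by edgeR, with 1 (Pola1) at an unadjusted p under 0.05, and 0 by DESeq2. Of all genes tested, 47.8% passed by edgeR. The 6 were Pola1, Pola2, Prim1 and Prim2 of the complex that starts each strand, Pold1 of the lagging-strand polymerase and Pole of the leading-strand polymerase. Their log2 fold changes ran from -0.13 (Pola1) to 0.08 (Pold1), with edgeR adjusted p of 0.0766 to 0.994 and 95% intervals within -0.30 to 0.24. Pole was at 28.6 ± 0.618 CPM in the libraries labelled DKO and 28.6 ± 1.92 CPM in WT. Pola1 was at 153 ± 13.1 CPM in the libraries labelled DKO and 167 ± 7.86 CPM in WT, and passed without DKO 2 or without DKO 3, at an edgeR adjusted p of 0.0499 and 0.0301.

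At the sliding clamp, its loader and the single-strand binding protein RPA, 2 of 7 genes fell and 5 did not pass. The share that fell, 28.6%, is close to the 24% of all genes tested. Rpa2, an RPA subunit, was at 227 to 279 CPM in the libraries labelled DKO, against 294 to 309 CPM in WT, with a log2 fold change of -0.30 ± 0.05 SE (adjusted p = 2.23e-05, edgeR). Rfc1, the large subunit of the clamp loader, was at 241 to 262 CPM in the libraries labelled DKO, against 294 to 338 CPM in WT, with a log2 fold change of -0.27 ± 0.05 SE (adjusted p = 3.5e-05, edgeR). In both genes the groups did not overlap, and DKO 1 was the lowest for Rfc1. Pcna, the clamp itself, did not pass (69.5 ± 4.77 CPM in the libraries labelled DKO and 73.5 ± 6.99 CPM in WT, log2 fold change -0.08, interval -0.25 to 0.09), and 2 Pcna pseudogenes in the table with counts of 339 and 0 over all libraries leave its own count uncertain. Rfc3 (-0.13, edgeR adjusted p = 0.0616), Rpa1 (-0.08), Rfc5 (-0.01) and Rfc4 (0.13) did not pass, and Rfc3 passed without WT 4 (edgeR adjusted p = 0.0402). Rfc5 shares 499 bases of exon with Wsb2 on the other strand, which rose by a log2 fold change of 0.79.

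Of the 2 genes that finish the lagging strand, Lig1 fell. Lig1 (ENSMUSG00000056394, chr7:13277283-13311433, plus strand), the ligase that seals Okazaki fragments, was at 1087, 1216, 1321, 1200.2 and 1101 CPM in DKO 1 to 5, against 1561, 1630.0, 1802 and 1555 CPM in WT 1 to 4. WT 3 and DKO 3 were the highest of their groups, with no overlap. The means were 1185 ± 95.2 CPM in the libraries labelled DKO and 1637 ± 115 CPM in WT, a log2 fold change of -0.47 ± 0.05 SE (adjusted p = 2e-08, edgeR). Fen1, the flap endonuclease, did not pass, at 99.5 to 111 CPM in the libraries labelled DKO, against 92.6 to 105 CPM in WT (log2 fold change 0.05, interval -0.09 to 0.19).

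Both subunits of ribonucleotide reductase, the enzyme that makes deoxynucleotides, fell modestly. Rrm1 was at 159 to 178 CPM in the libraries labelled DKO, against 186 to 201 CPM in WT, with a log2 fold change of -0.20 ± 0.05 SE (adjusted p = 0.00138, edgeR), and Rrm2, the S phase subunit, was at 184 to 212 CPM in the libraries labelled DKO, against 213 to 249.5 CPM in WT, with -0.25 ± 0.06 SE (adjusted p = 0.000363, edgeR). Neither had overlapping groups. Tyms, the thymidylate synthase gene, rose instead, at 76.0 to 100.04 CPM in the libraries labelled DKO, against 68.9 to 88.1 CPM in WT, with a log2 fold change of 0.20 ± 0.08 SE (adjusted p = 0.0324, edgeR). Its groups overlap, it no longer passed without DKO 1, DKO 4, DKO 5, WT 2 or WT 3 (edgeR adjusted p 0.00150 to 0.171 over the 9 such fits), and DESeq2 gave an adjusted p of 0.0790. The pseudogene Tyms-ps had 52 counts over all libraries.

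Among the regulators of S phase entry, cyclin E1 fell. Ccne1 was at 171 to 196 CPM in the libraries labelled DKO, against 207 to 220.4 CPM in WT, without overlap (log2 fold change -0.23 ± 0.05 SE, adjusted p = 0.000256 by edgeR). Ccne2, the other cyclin E gene, and E2f1, an activator of S phase genes, did not pass, with log2 fold changes of 0.10 (interval -0.10 to 0.30) and 0.09 (interval -0.05 to 0.23).

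Other genes of the pathway, 98 in 7 lists, had shares close to the background: of 94 tested, 24 rose and 26 fell (25.5% and 27.7%, beside 23.9% and 24% of all genes tested), with a median log2 fold change of -0.06. Values in parentheses here are log2 fold changes, with mean levels ± SD (n = 5 and 4) where given. Fork and polymerase subunits beyond the members held 3 rises and 6 falls of 20 (15% and 30%), among them the RNase H2 subunits Rnaseh2a (-0.95, 51.0 ± 3.94 CPM in the libraries labelled DKO and 98.2 ± 3.64 CPM in WT) and Rnaseh2b (0.30, 72.3 ± 5.72 CPM in the libraries labelled DKO and 58.8 ± 1.84 CPM in WT), the smallest RPA subunit Rpa3 (0.91, 37.0 ± 4.37 CPM in the libraries labelled DKO and 19.7 ± 1.98 CPM in WT) and the clamp unloader Atad5 (0.68, 70.3 ± 7.10 CPM in the libraries labelled DKO and 43.6 ± 4.41 CPM in WT). Pole4, Tipin and Chtf8, which act at the polymerase, the fork and the clamp loader, fell (-0.41, -0.28 and -0.32), and Rfc2 (-0.13) and Top1 (-0.11) did not pass. Rnaseh2a and Chtf8 lie on chromosome 8 after Klf2, Rpa3 and Pole4 on chromosome 6, where the medians within 5 Mb were 0.15 and -0.27. Of 10 further origin and firing factors, 1 rose, Ticrr, the treslin gene (0.20), and 1 fell, Mcm8 (-0.43). These are 10% each, beside 23.9% and 24% of all genes tested. The other 8, among them Mcmbp (-0.07) and Wdhd1 (-0.11), did not pass.

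Genes that rebuild chromatin and copy DNA methylation behind the fork fell in 8 of 12 cases (66.7%, beside 24% of all genes tested) and rose in 1. Nasp, a histone chaperone, was at 1329 ± 72.8 CPM in the libraries labelled DKO and 1568 ± 75.9 CPM in WT (log2 fold change -0.24), and the remodeler Hells (-0.30), the methylation cofactor Uhrf1 (-0.30) and the chaperone Asf1b (-0.43, on chromosome 8 after Klf2) fell with it, while Tonsl rose (0.16) and Chaf1b (0.07) and Supt16 (-0.07) did not pass. Of 12 further nucleotide enzymes 4 fell (33.3%, beside the same 24%) and 1 rose. Tk1, the thymidine kinase of S phase, was at 34.2 ± 1.48 CPM in the libraries labelled DKO and 69.8 ± 5.02 CPM in WT (-1.03), and Samhd1, which degrades deoxynucleotides, was at 44.5 ± 4.18 CPM in the libraries labelled DKO and 76.7 ± 3.84 CPM in WT (-0.78). Umps, of pyrimidine synthesis, fell by a log2 fold change of 0.76, Tk2 had -0.41 and lies on chromosome 8, and Cad rose (0.24), while Dut (0.06) and Paics (-0.08) did not pass.

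Of 27 cyclin, CDK, E2F and RB genes 11 rose and 5 fell (40.7% and 18.5%), and of 5 tested CDK inhibitors 4 rose and 1 did not pass, beside 23.9% higher and 24% lower among all genes tested. Ccnd1, the gene of cyclin D1, was at 23.2, 24.6, 30.9, 27.2 and 24.0 CPM in DKO 1 to 5, against 366, 376, 368 and 347 CPM in WT 1 to 4, a log2 fold change of -3.81 ± 0.07 SE (adjusted p = 2.09e-31, edgeR). The other D cyclins went the other way, with Ccnd3 at 923 ± 73.1 CPM in the libraries labelled DKO and 526 ± 10.01 CPM in WT (0.81) and Ccnd2 at 24.8 ± 5.46 CPM in the libraries labelled DKO and 10.4 ± 1.79 CPM in WT (1.25). Ccnd2 lies on a part of chromosome 6 where the median within 5 Mb was 0.35, and less that median it came to 0.90. Tfdp1, an E2F partner, rose (0.60) and E2f4, a repressor E2F, fell (-0.62), and these lie on chromosome 8 before and after Klf2. Mybl2 rose (0.42), Cdc25a and Cdk6 fell (-0.20 and -0.27), and Ccna2 (-0.09) and Cks1b (-0.02) did not pass. Among the inhibitors, Cdkn1a (p21) was at 372 ± 23.2 CPM in the libraries labelled DKO and 229 ± 10.6 CPM in WT (0.70), Cdkn1b (p27) at 65.8 ± 5.28 CPM in the libraries labelled DKO and 34.3 ± 0.627 CPM in WT (0.94) and Cdkn2a at 103 ± 16.0 CPM in the libraries labelled DKO and 60.3 ± 9.92 CPM in WT (0.77), Cdkn2d rose (0.26), and Cdkn2b, with few reads, did not pass (0.60).

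In the replication checkpoint, 3 of 8 genes rose and 2 fell (37.5% and 25%, beside 23.9% and 24% of all genes tested). Wee1 (0.28), Etaa1 (0.21) and Hus1 (0.19) were higher, and Chek1 (-0.27), the kinase that protects stalled forks, and Rad1 (-0.22) were lower, while Atr (0.13) and Rad17 (0.11) did not pass. Of 25 genes of mitosis, taken for comparison, 14 fell and 2 rose (56% and 8%), with a median log2 fold change of -0.14. Aurka, an early mitotic kinase, was at 192 ± 4.70 CPM in the libraries labelled DKO and 264 ± 11.3 CPM in WT (-0.46), with Plk1 (-0.37), Birc5 (-0.34) and Kif23 (-0.31) lower too, Cenpf (0.34) and Bub1 (0.18) higher, and Ccnb1 (-0.10) and Cenpa (-0.12) not passing. The difference between these lists and the replication genes was not tested.

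**Figure D5:**
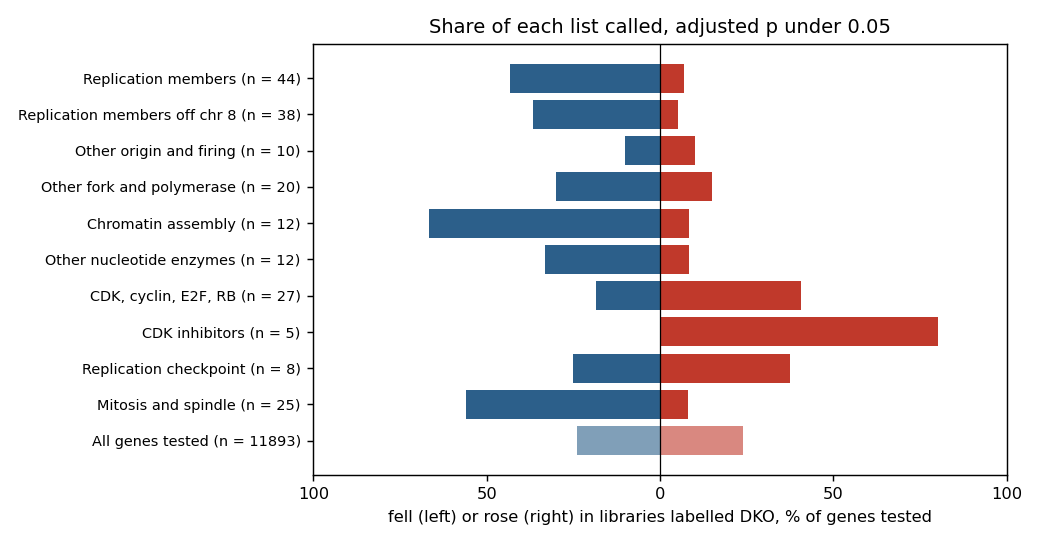
Share of the tested genes of each list that fell (blue, to the left) or rose (red, to the right) in the libraries labelled DKO, in percent, with the shares over all 11893 genes tested in the pale lowest bar. The replication genes are at 43.2% lower and 6.82% higher, against 24% and 23.9% of all genes, and the CDK inhibitors and the mitosis genes lie on opposite sides.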

How the data were processed

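Libraries of polyadenylated RNA 3' ends were made, per the labels' protocols, with the forward QuantSeq kit, which marks strand. The deposited values are raw counts of exon reads for each gene. The submitters' processing notes name mm10, cutadapt, STAR, featureCounts and DESeq2. The sources used here do not give versions, annotation, strand setting or treatment of multi-mapped reads, and the reads of overlapping genes and close copies can be shared or lost. In 13 members, exons overlap those of a gene on the other strand. They include Orc2 with Nif3l1 (1150 bases) and Ccne2 with Ints8 (609 bases). All 9 columns were used, and 52403 of 52550 gene identifiers matched GENCODE mouse release 21, which gives the symbols and positions on that build.

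Genes were kept with filterByExpr, scaled by TMM and tested with the robust quasi-likelihood test of edgeR 4.0.16 (R 4.3.3) on the 9 libraries, DKO against WT, with no further covariate. Benjamini-Hochberg adjustment ran over all 11893 genes tested, and an adjusted p under 0.05 counted as passing. Each standard error (SE) was derived from the F statistic. The 95% intervals use a t distribution with 7 degrees of freedom and are somewhat wider than the edgeR test, which borrows information across genes. The fit was also run on simulated data, as a check of the code and not of the calls given here. The floor of 3 counts covers counting error only. Within groups, the 16 pairs of libraries differed beyond sampling noise, with a chi-square per degree of freedom of 2.30 to 5.31. Each library counted as 1 sample, though such scatter can be technical and does not show that replicates came from separate cultures.

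The members and lists were chosen with earlier results of these data known, and no list was tested. Members that passed without overlap between the groups were named with all libraries, up to 10 in each direction by size, and of each other list up to 4 genes in each direction and up to 2 that did not pass. Alternatives were DESeq2 1.42.0, other scaling and filters, a test against a 1.2-fold change, each library left out, and the replicate number as a block. Added after the data were seen were a subtraction of the median within 5 Mb and counts without chromosome 8. The median over the whole chromosome was subtracted as well. Promoters are RefSeq's, on GRCm38.p6.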

Additional observations from a re-analysis of the deposited data

Results flagged for a closer look

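In 4 of the 90 sets of libraries examined (44 genes and their summed level, in each group), 1 library lay apart from the others of its group by a gap larger than Dixon's 95% limit, and chance alone flags about 1 set in 20. Mcm10 was at 220.0 CPM in WT 2, against 211 to 212 CPM in the other WT libraries. Rfc1 was at 241 CPM in DKO 1, against 258 to 262 CPM in the other libraries labelled DKO. Rfc5 was at 445 CPM in DKO 1, against 509 to 531 CPM in the other libraries labelled DKO. Fen1 was at 92.6 CPM in WT 4, against 104 to 105 CPM in the other WT libraries. Mcm10 and Rfc1 still passed with any single library left out, and Rfc5 and Fen1 did not pass in any of those fits.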

How the results depend on the processing

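The direction of each member that passed was the same in all 17 refits (DESeq2, other scaling and filters, the 1.2-fold test, single libraries left out, and libraries 1 to 4 with and without the block), and the calls that changed sides, other than under the 1.2-fold test, were those of Mcm3, Mcm4, Tyms, Pola1 and Rfc3. A test against a 1.2-fold change asks for more, and left 1475 genes higher and 1592 lower in the libraries labelled DKO, with 1 replication gene higher and 10 lower and 10 genes of the other pathway lists higher and 8 lower, where the test against no change gave 2837, 2852, 3, 19, 24 and 26. Subtracting the median within 5 Mb, chosen after the data were seen, turned Cdt1 to 0.034 and Gins3 to 0.070. Other falls shrank or grew: Mcm2 came to -0.20 and Orc6 to -0.06, and Mcm3 to -0.34, Rfc1 to -0.43 and Lig1 to -0.54. Less the median of the whole chromosome (-0.19 on chromosome 8, over both sides of Klf2), Cdt1 and Gins3 stayed negative, at -0.36 and -0.31. With single libraries left out, 2 to 3 members rose and 17 to 20 fell, 20 to 26 and 24 to 29 genes of the other lists did so, and 2560 to 2849 and 2661 to 2880 of all genes. The replicate numbers were not taken as pairing the samples: same-numbered libraries had deviations correlated at 0.0245 to 0.0649, though each of the 4 in both groups correlated best with its own number, a hint from the data and not the design. With the replicate block on libraries 1 to 4, 3 members rose and 19 fell, against 2 and 18 without it, and 2699 of all genes rose and 2798 fell, against 2602 and 2661, and 23 and 27 of the other lists, against 21 and 25. Mcm3, at a log2 fold change of -0.10, was the smallest difference called among the members, while Rfc3 and Rfc4, at -0.13 and 0.13, did not pass, so differences of this size lie at the edge of what these libraries could show.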
